A study of Mus musculus with 50 samples.

Results

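The genes described here are 9 genes of cell adhesion and of the keratin cytoskeleton of the thyroid follicle epithelium. They are Epcam, Cdh1, Cdh16, Cldn3, Tjp1, Krt7, Krt8, Krt18 and Krt19. Their Ensembl identifiers are, in this order, ENSMUSG00000045394, ENSMUSG00000000303, ENSMUSG00000031881, ENSMUSG00000070473, ENSMUSG00000030516, ENSMUSG00000023039, ENSMUSG00000049382, ENSMUSG00000023043 and ENSMUSG00000020911. They were chosen by name, and all 9 were found once each by Ensembl identifier among the 52636 genes of the deposited count table. Their levels were followed as CPM, the read count scaled to a common library total, and as a ratio to the count of Pax8, a transcription factor of the follicle cell.

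Whole-thyroid RNA of male C57BL/6 mice was sequenced in 50 libraries, 10 groups of 5. Control mice received an antibody against ragweed (RW, 40 mg/kg), and no group was left without an antibody. Antibodies against Jag1 and Jag2, which are Notch ligands (aJ1aJ2, 20 mg/kg of each), or against the receptors Notch1 and Notch2 (aN1aN2, 5 and 10 mg/kg) block Notch signaling, a pathway by which a membrane-bound ligand on a cell activates a receptor on its neighbour. RW, aJ1aJ2 and aN1aN2 were studied 15 hours and 5 days after a single intraperitoneal injection, and RW and aJ1aJ2 also after 7 days in a first set of libraries. The other 7-day set compared aJ1aJ2 with a mixture against Notch1, Notch2 and Notch3 (aN1aN2aN3, 5, 10 and 20 mg/kg), and is called the second set. RW libraries were not analysed here for it. The mice were 10 to 12 weeks old in the series description and 10 to 14 weeks old in the treatment protocol. The series description also mentions daily thyroid hormone injections, and no label says which mice received them. The aN1aN2 libraries at 15 hours carry the sample-ID series of the 5-day libraries, whereas RW and aJ1aJ2 at 15 hours carry another, so that at 15 hours the aN1aN2 treatment and the ID series cannot be told apart.

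The thyroid follicle is a closed sphere of a single layer of polarized epithelial cells around a store of thyroglobulin. Neighbouring cells are held together by adherens junctions, built on the calcium-dependent cadherin E-cadherin (Cdh1), and are sealed at their apical edge by tight junctions, in which claudins such as Cldn3 span the membrane and Tjp1 (ZO-1) is the scaffold beneath it. Epcam is a homophilic adhesion protein of simple epithelia, and Cdh16 (Ksp-cadherin) is a cadherin with a short cytoplasmic tail that is known mainly from kidney and thyroid epithelium. Krt7, Krt8, Krt18 and Krt19 are the keratins of simple epithelia, in which a type II chain (Krt7, Krt8) pairs with a type I chain (Krt18, Krt19) to form a filament.

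Promoter sequence is shown for 3 members whose values carry the comparisons below. Cldn3 was the only member that passed the test before division by Pax8, and Epcam passed in neither form. Krt8 is a keratin that passed only relative to Pax8, as did Krt7 and Krt19. Its ratio to Pax8 separated groups in 2 comparisons, as did the ratios of Cdh16 and Krt19. RefSeq promoters of GRCm38.p6 were matched by symbol for 6 of the 9 members (Epcam, Krt7, Krt8, Krt18, Cldn3 and Tjp1). The 250 bases before the start were searched on both strands for GTGGGAA, the core letters bound by RBPJ, the DNA-binding factor of Notch signaling, for CACCTG, an E-box letter string bound by Snail and Zeb repressors, and for TATAAA, the TATA box. Of 32851 promoters of this length, 5.42% hold GTGGGAA, 17.2% hold CACCTG and 12.4% hold TATAAA, and the motifs do not overlap in the sequences shown. Capitals mark a match, also where it lies on the opposite strand, and a match is a description of letters only.
Cldn3, chr5:134985964-134986213, plus strand, no match: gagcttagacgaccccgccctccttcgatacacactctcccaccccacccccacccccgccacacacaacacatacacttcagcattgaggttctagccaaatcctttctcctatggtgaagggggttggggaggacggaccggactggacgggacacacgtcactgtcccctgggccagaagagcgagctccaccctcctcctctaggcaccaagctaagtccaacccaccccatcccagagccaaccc
Epcam, chr17:87635729-87635978, plus strand, capitals CACCTG on either strand: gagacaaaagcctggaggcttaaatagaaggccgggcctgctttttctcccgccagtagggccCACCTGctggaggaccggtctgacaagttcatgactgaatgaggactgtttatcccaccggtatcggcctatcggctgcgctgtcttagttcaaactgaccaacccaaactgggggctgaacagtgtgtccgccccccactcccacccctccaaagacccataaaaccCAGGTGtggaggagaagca
Krt8, chr15:102004459-102004488, minus strand, capitals GTGGGAA: agggatcccggGTGGGAAcagctctctgct
In Krt8 the GTGGGAA began 135 bases before the start, and it was the only match of that string among the 6 members' windows. CACCTG was found in Epcam, Krt7, Krt8 and Krt18, and in Epcam at 2 places, 187 and 19 bases before the start. TATAAA was found in none of the 6 windows. Of the 250 bases of each window, 162 in Krt7, 140 in Krt8 and 36 in Krt18 lie in exons of the same gene in GENCODE M21, of transcripts annotated to begin further upstream, and 0 in Epcam, Cldn3 and Tjp1. The first 30 bases after the RefSeq start were found in a GENCODE transcript of the same gene for all of the 6 but Tjp1.

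Libraries held 15271242 to 52835846 counts each. Thyroglobulin (Tg), the defining product of follicle cells, took 21.5% to 30.4% of the counts on average in 8 groups, and in the second 7-day set 1.86% ± 0.612 (aJ1aJ2) and 5.00% ± 1.32 (aN1aN2aN3, SD, n = 5 each). RW replicate 3 at 5 days had 0.45% Tg and 12.1% of its counts in a list of 9 skeletal muscle genes. In bulk tissue, fewer follicle cells and less RNA per follicle cell cannot be told apart.

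All 9 genes were expressed in control thyroids. To compare genes, CPM was divided by the length of the merged exons in GENCODE M21, because the deposited FPKM values followed the span of the whole gene with its introns (within 10% of a fixed multiple of it for 91.7% of 14418 genes, against 7.3% for exon length). In RW thyroids of the first 7-day set, Epcam stood highest at 149 ± 34.7 CPM per kb, followed by Cdh16 at 134 ± 25.9, Cldn3 at 103 ± 25.1, Cdh1 at 79.6 ± 8.13 and Krt18 at 78.1 ± 21.6 (SD, n = 5 for each). Krt19 followed at 48.0 ± 19.7, Krt7 at 25.7 ± 6.82, Krt8 at 23.4 ± 5.78 and Tjp1 at 14.5 ± 2.71 CPM per kb. Each gene differed from its neighbour in this order by less than the sum of both SDs for Epcam and Cdh16, Cdh16 and Cldn3, Cldn3 and Cdh1, Cdh1 and Krt18, Krt18 and Krt19, Krt19 and Krt7, and Krt7 and Krt8, but not for Krt8 and Tjp1. Both places of Krt7 and Krt8 are uncertain, since merged exons of Krt7 reach 7.05 kb, and 29.7% of the 50-base words of Krt8 transcripts also occur in other genes, chiefly the pseudogene Krt8-ps. Exons of Krt7 (77 bases), Krt8 (101 bases) and Cldn3 (40 bases) overlap genes on the opposite strand (Gm671, Gm36026 and Wbscr25), whose reads cannot be told apart from theirs without strand, and no overlap was found for the other 6 members.

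**Figure D1:**
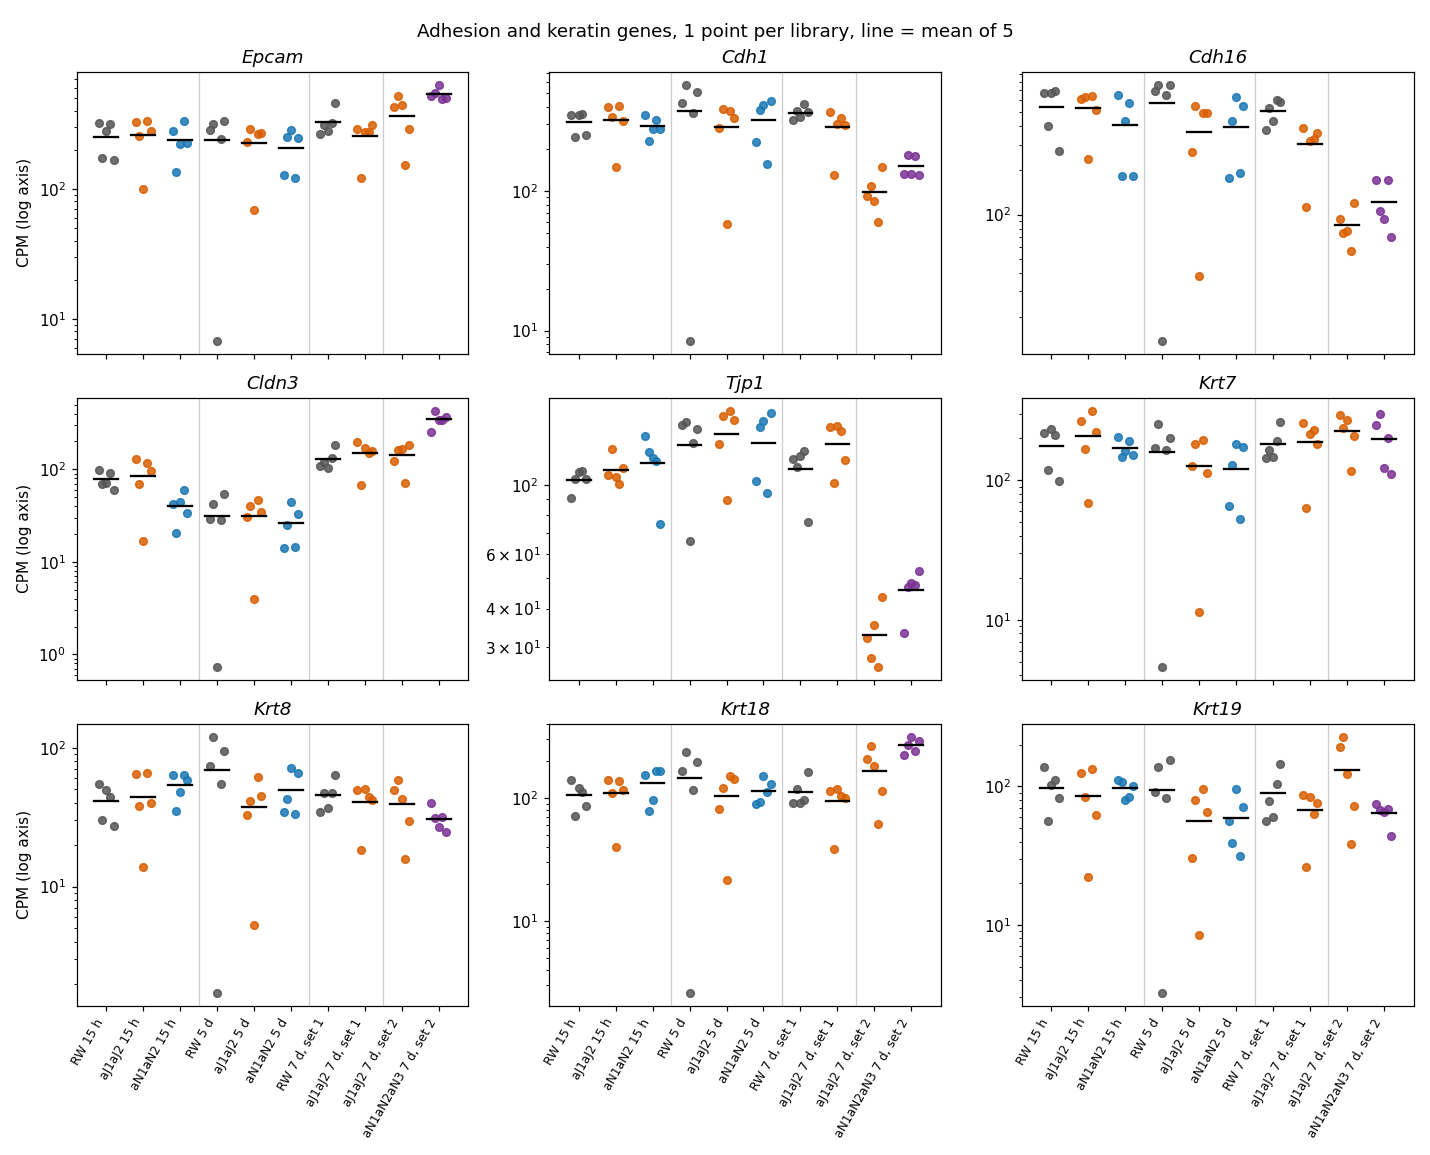
CPM of each gene (log axis) in the 10 groups, 1 point per library, with the line at the mean of 5. Most members lie lowest in RW replicate 3 at 5 days, and Cdh1, Cdh16 and Tjp1 have lower means in both groups of the second 7-day set than in the other groups.

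Most members varied together between libraries of the same group. Cdh16 ranged from 13.8 CPM in RW replicate 3 at 5 days to 767 CPM in RW replicate 5 of the same group, and Epcam there was 281, 314, 6.77, 243 and 334 CPM. Krt8 in that group was 73.5, 120.04, 1.72, 55.0 and 95.1 CPM. In each of these genes replicate 3 lay far below the other 4 libraries. Tjp1, which endothelium and other tissues also express, was 157, 159, 66.0, 137 and 152 CPM and was closer to the others in replicate 3.

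The pooled SD of log2 CPM within groups was 0.95 to 1.12 for the other 8 members and 0.33 for Tjp1, over 50 libraries. Expressed as a ratio to Pax8, the SD shrank from 1.12 to 0.23 for Cdh16, from 1.1 to 0.38 for Krt7, from 0.98 to 0.38 for Cdh1 and from 1.1 to 0.38 for Cldn3. It shrank less for Epcam (0.95 to 0.46), Krt8 (1.05 to 0.46), Krt18 (1.06 to 0.57) and Krt19 (1.06 to 0.63). For Tjp1 it grew from 0.33 to 0.88. Without RW replicate 3 at 5 days the SDs of log2 CPM were 0.55 to 0.80 for the 8 and 0.29 for Tjp1, and those of the log2 ratio were 0.24 to 0.64 for the 8 and 0.63 for Tjp1. Without that library the ratio of Krt19 to Pax8 (SD 0.64) thus varied as much as that of Tjp1.

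**Figure D2:**
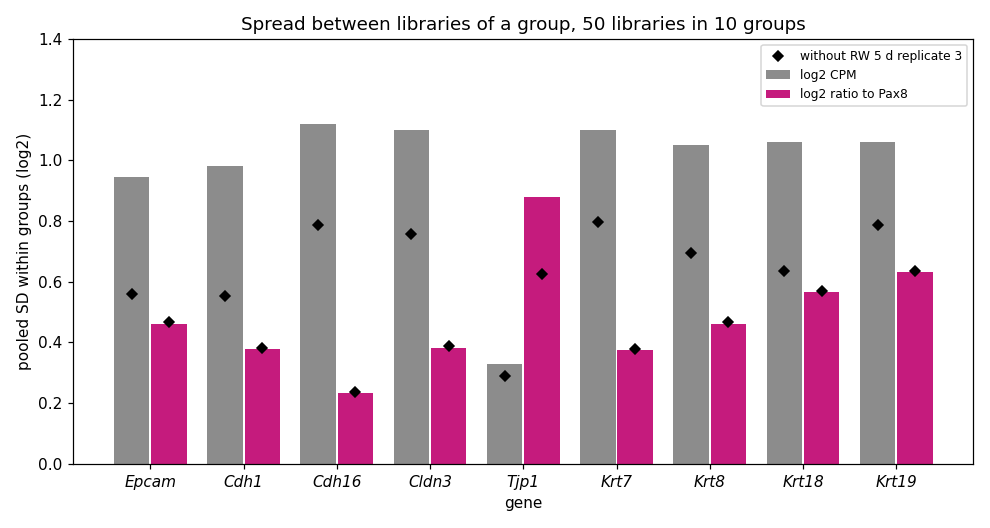
Pooled SD within groups (log2 units) of CPM in grey and of the ratio to Pax8 in pink, with diamonds for the same values without RW replicate 3 at 5 days. The pink bar is the lower of the pair for every gene except Tjp1.

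Deviations from the group mean of log2 CPM were correlated over the 50 libraries, which share the variation in follicle tissue. Cdh16 and Pax8 had r = 0.98, and Pax8 ranked 3 in likeness to Cdh16 among 10086 genes, behind Prom2 (r = 0.98) and Scnn1b (r = 0.98). Krt8 and Krt18, partners in a filament, had r = 0.973, and other epithelial genes were as close. Krt8 was most like Plpp2 (r = 0.979) and Tmprss2 (r = 0.975), with Krt18 at rank 3. Krt18 was most like Krt8, Epcam (r = 0.97) and Spint2 (r = 0.964). Epcam was most like Ap1m2 (r = 0.99), Stxbp2 (r = 0.98) and Bspry (r = 0.98), and Cdh1 was most like St14 (r = 0.99), Wwc1 (r = 0.98) and Spint1 (r = 0.98). Cldn3 was most like Crb3 (r = 0.98), Lsr (r = 0.98) and Kdf1 (r = 0.97). Krt7 was most like Bnipl, Kcnk1 and Folr1 (r = 0.97 each). Krt19 was most like Krt8 (r = 0.96), Rhpn2 and Tmprss2 (r = 0.95 each). Tjp1 had r between 0.55 and 0.73 with the other members, and its closest genes were Trim56 (r = 0.91), Gnaq and Glg1 (r = 0.90 each). All these r include RW replicate 3 at 5 days. Without that library Tjp1 had r from 0.32 (Krt19) to 0.65 (Cdh1) with the other members and 0.88 with Trim56, and Cdh16 had 0.95 with Pax8.

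The first question was whether blocking the ligands or the receptors changed these genes against RW. On TMM-scaled counts, 0 of the 9 members passed the threshold in any of the 5 comparisons with RW (edgeR quasi-likelihood test, Benjamini-Hochberg adjusted p under 0.05 over all genes tested), and DESeq2 also called 0 in each. Of all genes tested, 0.573% passed for aJ1aJ2 at 15 hours, 1.68% for aN1aN2 at 15 hours, 0.179% for aJ1aJ2 at 5 days, 0% for aN1aN2 at 5 days and 0% for aJ1aJ2 at 7 days. At an unadjusted p under 0.05 there was 1 member for aN1aN2 at 15 hours (Cldn3), 1 for aJ1aJ2 at 7 days (Cdh16) and 0 in the other 3 comparisons, where 6.59%, 14.4%, 11.8%, 10% and 11.6% of all genes had such a p, in the same order.

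At 15 hours the aJ1aJ2 differences on the log2 scale ran from -0.24 for Krt19 to 0.21 for Krt7, with a median of 0.02 against -0.03 over all genes tested. The 95% intervals for these 9 genes lay within -0.998 to 0.956, and the narrowest was that of Tjp1 (0.08, -0.23 to 0.38). For aN1aN2 at 15 hours the median was -0.05, and the values ran from -0.97 for Cldn3 to 0.37 for Krt8.

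Cldn3 was 97.4, 69.5, 70.5, 91.6 and 59.8 CPM in RW at 15 hours, 129, 69.1, 16.8, 117 and 96.4 CPM in aJ1aJ2, and 42.5, 20.4, 43.9, 59.8 and 33.9 CPM in aN1aN2. The highest aN1aN2 library reached the lowest RW library, and the other 4 lay below it. The difference between aN1aN2 and RW was -0.97 (log2, SE 0.402, adjusted p = 0.28 by edgeR). Cldn3 levels also differed between ID series, which apart from aN1aN2 at 15 hours each hold 1 time and set. The 3 groups at 5 days, which share theirs with aN1aN2 at 15 hours, had means of 26.3 to 31.2 CPM. The 2 groups of the first 7-day set had 129.5 ± 31.6 (RW) and 149 ± 49.3 (aJ1aJ2, SD, n = 5). In these means the ID series cannot be told apart from the time. The part of the ID series in the aN1aN2 difference was not tested.

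At 5 days the spread between libraries was wide and the 95% intervals reached as far as -2.45 and 1.60 on the log2 scale. The median over the members was -0.38 for aJ1aJ2 and -0.33 for aN1aN2, against -0.06 and -0.07 over all genes tested. The lowest values were those of Krt8 for aJ1aJ2 (-0.89, SE 0.728) and Krt19 for aN1aN2 (-0.67, SE 0.726). For aN1aN2 the 8 members other than Tjp1 lay below 0, and with the summed muscle genes as a covariate all 8 lay above 0, namely Epcam at 0.70, Cdh1 at 0.82, Cdh16 at 0.55, Krt7 at 0.64, Krt8 at 0.67, Krt18 at 0.83, Krt19 at 0.51 and Cldn3 at 0.80 (lowest edgeR adjusted p of these 0.307). The sign of these values therefore depends on the fit. For aJ1aJ2, Epcam (0.41), Cdh1 (0.08) and Krt7 (0.04) lay above 0 with the muscle covariate. At 7 days in the first set the median was -0.23 against 0.01 over all genes. Cdh16 was 377, 530, 435, 605 and 586 CPM in RW and 390, 112, 315, 328 and 362 CPM in aJ1aJ2. In all, 4 aJ1aJ2 libraries lay below the lowest RW library, and replicate 1 lay just above it. The difference was -0.74 (log2, SE 0.288), and it did not pass the adjustment (adjusted p = 0.37 by edgeR).

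Whether the antibody effect changed between 15 hours and 5 days was asked with an interaction term over 30 libraries. None of the 9 members passed (edgeR), for aJ1aJ2 (adjusted p from 0.72 to 0.99, against 0.636% of all genes passing) or for aN1aN2 (0.70 to 0.97, against 1.8%), and 0 members had an unadjusted p under 0.05 in either (11.2% and 14.8% of all genes).

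**Figure D3:**
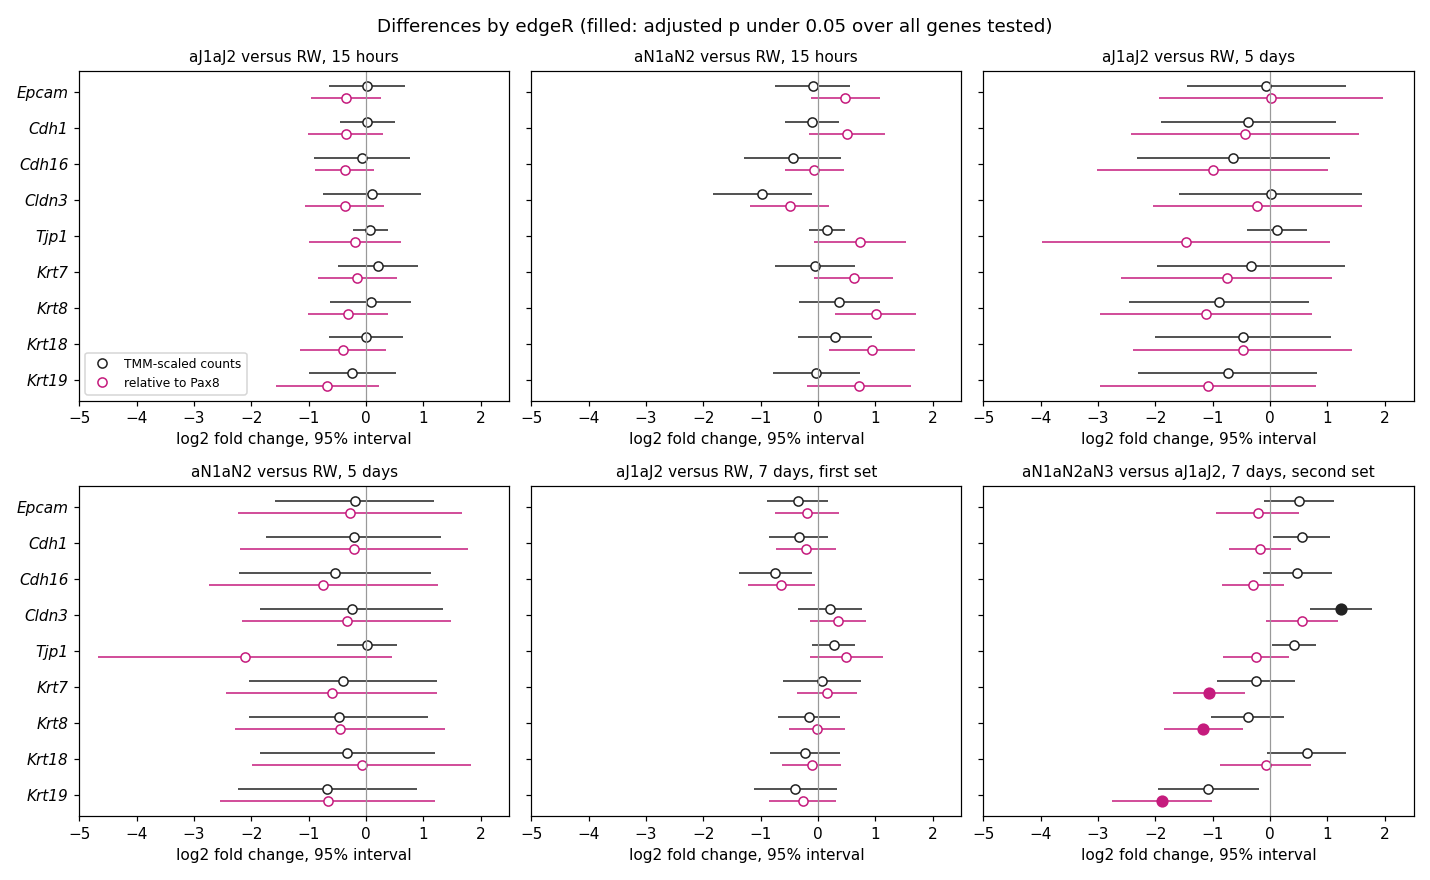
Log2 fold change with its 95% interval for each member in 6 comparisons, from TMM-scaled counts in black and relative to Pax8 in pink, with filled points past the threshold. Filled points appear only for Cldn3 (black) and for Krt7, Krt8 and Krt19 (pink) in the second 7-day set.

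The second measure was the ratio of each count to that of Pax8 in the same library. In edgeR with Pax8 as the library size, 0 of 9 members passed in the 5 comparisons with RW, where 0.167%, 0.259%, 0%, 0% and 0% of all genes did, in the order given above. At an unadjusted p under 0.05 there were 2 members for aN1aN2 at 15 hours (Krt8 and Krt18), 1 for aJ1aJ2 at 7 days (Cdh16) and 0 in the others, against 4.51%, 13.5%, 6.11%, 38.9% and 7.07% of all genes. This fit draws the spread of each gene towards that of all genes tested, including genes that do not follow Pax8. At 5 days its SEs for the members were 0.884 to 1.24. Each log2 ratio was therefore also compared by a 2-sided exact permutation test over the 10 libraries, a test added after the data were seen. There were 54 such tests, of which 16 gave p under 0.05 and 8 reached 0.00794, the smallest p that 5 against 5 allows. These p-values are not adjusted for their number, and they describe how far the libraries separate. The tests of a comparison share the same Pax8 counts, and those at 15 hours and at 5 days share RW libraries, so they are not independent. The exact test was not run over all genes, so no share of all genes stands beside these counts. In the 5 comparisons with RW they stand beside edgeR tests that no member passed.

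The mean Cdh16 ratio was lower under aJ1aJ2 than under RW at each of the 3 times. At 5 days it was 2.30, 2.00, 1.89, 1.97 and 1.72 in RW and 0.812, 0.983, 1.03, 0.9749 and 1.13 in aJ1aJ2. The groups did not overlap, and the RW library rich in muscle lay among the other RW libraries. The means were 1.98 ± 0.210 and 0.987 ± 0.116 (SD, n = 5), a log2 difference of -1.01 (exact permutation p = 0.00794; edgeR adjusted p = 0.43). In aN1aN2 at 5 days the ratio was 1.52, 1.20, 0.877, 1.26 and 1.06, also without overlap with RW (mean 1.18 ± 0.239, log2 difference -0.76, exact permutation p = 0.00794; edgeR adjusted p = 0.52), where 0.505% of all genes were lower without overlap. Without RW replicate 3 the differences were -1.02 and -0.77. Krt7 was also lower in aN1aN2 at 5 days, with overlap (-0.64, exact permutation p = 0.0238). Both comparisons share the RW libraries. By edgeR relative to Pax8, the median over all genes at 5 days was -1.93 for aJ1aJ2 and -2.62 for aN1aN2. Over the 12 tested genes of the follicle cell list it was -0.86 and -0.76. These are not the mean log2 differences given above: for aJ1aJ2, Tjp1 was at -1.47 by edgeR and at -0.57 by mean log2 ratio. The medians include RW replicate 3, where Pax8 was 7.31 CPM (group median 328) and the Tjp1 ratio 9.02 (group median 0.417). A gene that does not follow Pax8 can have a high ratio in that library. The part of that library in the medians was not tested.

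At 15 hours the Cdh16 ratio was 1.69, 1.30, 1.54, 1.55 and 1.18 in RW and 1.11, 1.31, 1.05, 1.21 and 0.924 in aJ1aJ2. The groups overlapped, and the log2 difference was -0.37 (exact permutation p = 0.0397, edgeR adjusted p = 0.86). By edgeR relative to Pax8 all 9 members lay below 0 in this comparison, with a median of -0.35 against -0.31 over all genes. On TMM-scaled counts Cdh16 was at -0.07. The exact p exceeded 0.05 when any of RW replicates 1, 3 and 4 or aJ1aJ2 replicates 1, 3 and 5 was left out (at most 0.0714). At 7 days in the first set it was 1.01, 1.53, 1.29, 1.57 and 1.38 in RW and 0.739, 0.757, 0.825, 0.905 and 1.14 in aJ1aJ2. In aJ1aJ2, 4 libraries lay below all RW libraries (log2 difference -0.64, exact permutation p = 0.0159; edgeR adjusted p = 0.61). Relative to the summed counts of Pax8, Nkx2-1, Foxe1 and Hhex the differences were -0.31 at 15 hours (exact permutation p = 0.0635), -0.92 at 5 days (p = 0.00794) and -0.53 at 7 days (p = 0.0159). Pax8 itself did not pass at any of the 3 times (0.33, 0.36 and -0.09 on the log2 scale; edgeR adjusted p = 1, 0.87 and 0.89), and its exons overlap 367 bases of Gm13415 on the opposite strand, so its count is uncertain to that extent.

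Keratin ratios were also lower in aJ1aJ2 at 5 days. Krt8 over Pax8 was 0.245, 0.314, 0.235, 0.168 and 0.214 in RW and 0.0981, 0.0747, 0.143, 0.123 and 0.103 in aJ1aJ2 (log2 difference -1.12). Krt7 was 0.454 to 0.660 in RW and 0.260 to 0.391 in aJ1aJ2 (log2 difference -0.76). Krt19 was 0.250 to 0.443 in RW and 0.0918 to 0.229 in aJ1aJ2 (log2 difference -1.12). None of these 3 genes overlapped between the groups (exact permutation p = 0.00794 each; edgeR adjusted p = 0.35, 0.51 and 0.37). With Cdh16 this makes 4 of 9 members without overlap, all lower, where 0.461% of all genes tested were lower without overlap. The median over all genes by edgeR was -1.93, with RW replicate 3 included. That share also counts genes that do not follow Pax8. Such a gene can overlap through aJ1aJ2 replicate 3, where Pax8 was 36.85 CPM (group mean 372.4) and the Tjp1 ratio 2.435. The share is therefore no like-for-like yardstick for members that follow Pax8. By edgeR relative to Pax8 the median was -0.86 over the 12 tested genes of the follicle cell list. It was -0.75 over 20 further tight junction genes, -1.22 over 16 adherens junction and desmosome genes and -0.38 over 19 other genes of epithelial identity. Lower values relative to Pax8 were thus not particular to these 4 members. Cldn3 in the same libraries was 0.0867 to 0.123 in RW and 0.0721 to 0.108 in aJ1aJ2 and overlapped (log2 difference -0.22 by edgeR). Krt18 overlapped as well (-0.48 by edgeR). Epcam and Cdh1 overlapped because of aJ1aJ2 replicate 3, a library with 2.39% Tg. Without it their differences in mean log2 ratio were -0.51 and -0.71, against -0.17 and -0.50 with it. Krt18 was at -0.76 without it and -0.53 with it on the same measure. No test is given for these values, since the library was singled out by its overlap.

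**Figure D4:**
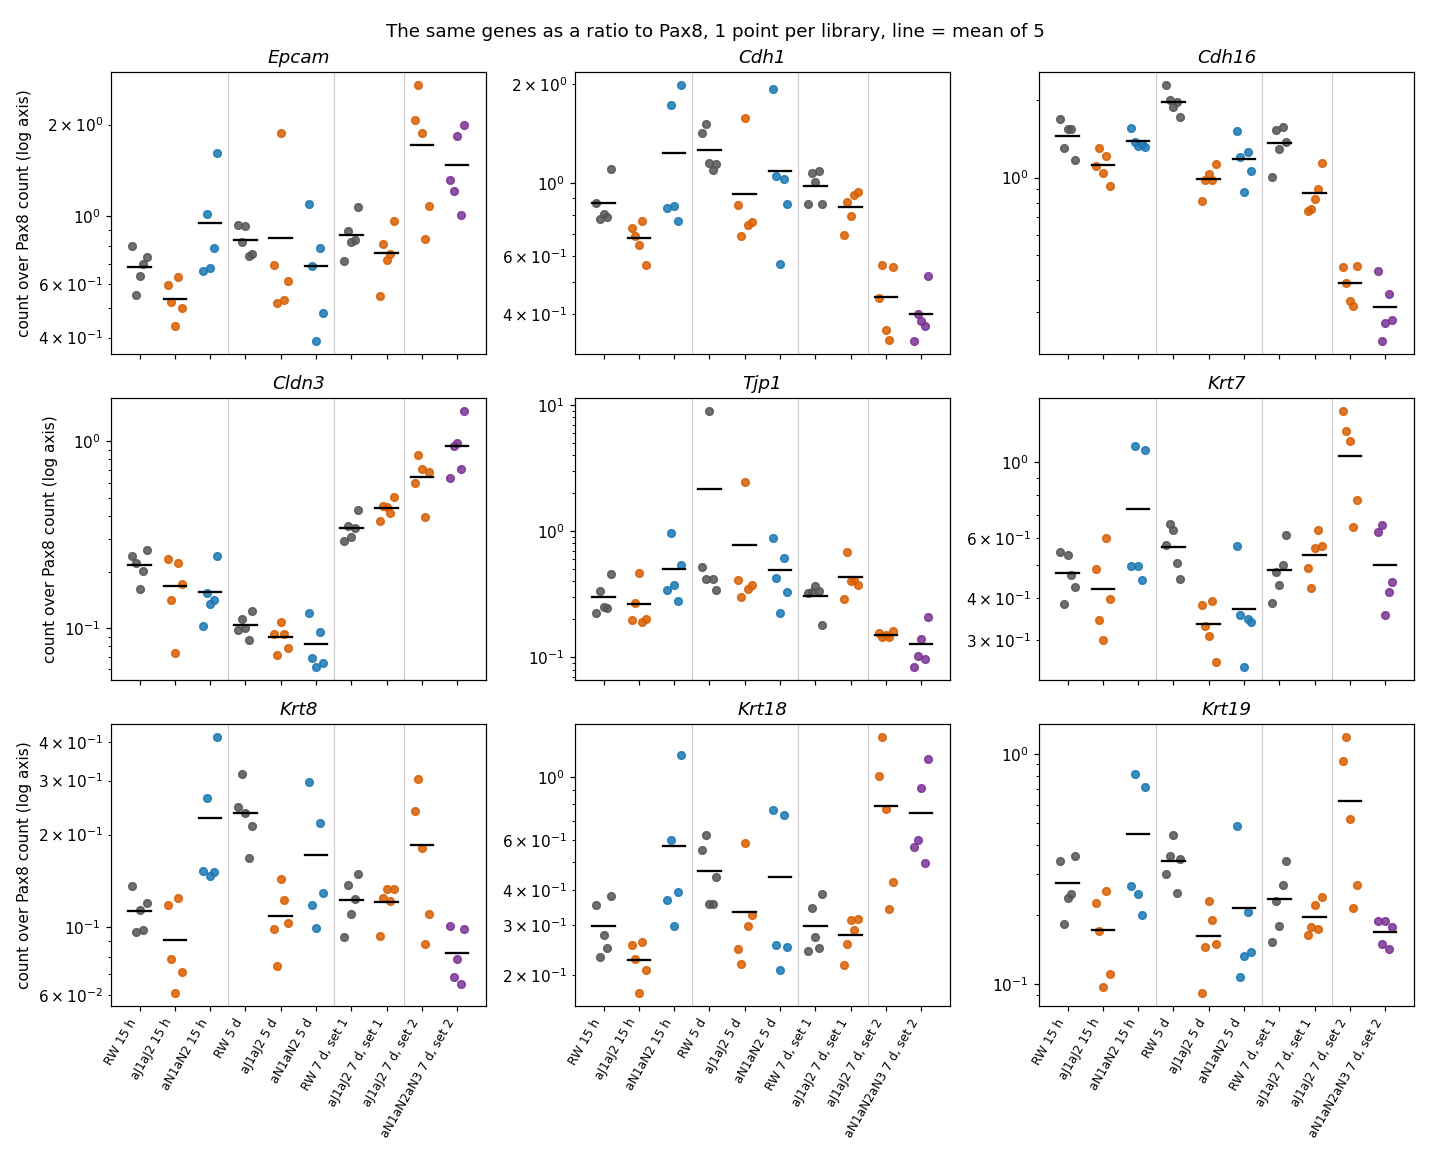
Count of each gene over the count of Pax8 in the same library (log axis), 1 point per library, with the line at the mean of 5. At 5 days the aJ1aJ2 points of Cdh16, Krt7, Krt8 and Krt19 all lie below the RW points, and Tjp1 is far above the rest in RW replicate 3 (9.02).

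At 7 days in the first set the Krt8 ratio was 0.0926 to 0.149 in RW and 0.0933 to 0.133 in aJ1aJ2, and the Krt7 ratio 0.385 to 0.613 and 0.428 to 0.632, so that both overlapped throughout. The 95% intervals of the log2 difference by edgeR were -0.51 to 0.47 for Krt8 and -0.37 to 0.67 for Krt7. Cldn3 was higher there relative to Pax8 (0.345 ± 0.0536 in RW and 0.438 ± 0.0471 in aJ1aJ2, SD, n = 5; exact permutation p = 0.0238, and 0.0556 without RW replicate 1 or 3; edgeR adjusted p = 0.61). Its log2 difference of 0.35 lay close to the median over all genes on that scale, 0.3. At 15 hours Cdh1 was 0.779 to 1.11 in RW and 0.563 to 0.768 in aJ1aJ2 without overlap (log2 difference -0.35, exact permutation p = 0.00794; edgeR adjusted p = 0.86), where 2.77% of all genes were lower without overlap. Epcam was also lower at 15 hours, with overlap (-0.35, exact permutation p = 0.0317, and 0.0714 without RW replicate 1 or 5). The median of all genes in that comparison relative to Pax8 was -0.31.

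In aN1aN2 at 15 hours the ratios of Krt8 and Krt18 were higher than in RW. Krt8 was 0.153, 0.264, 0.147, 0.151 and 0.417 in aN1aN2 and 0.0965 to 0.136 in RW, with no overlap (log2 difference 0.88, exact permutation p = 0.00794; edgeR adjusted p = 0.33), where 1.42% of all genes were higher without overlap. Krt18 was 0.299 to 1.20 in aN1aN2 and 0.232 to 0.380 in RW (0.77, exact permutation p = 0.0476; edgeR adjusted p = 0.33), and without aN1aN2 replicate 5 it was at 0.46 (exact permutation p = 0.103). The high values came from replicates 2 and 5. In these replicates 10 airway epithelium markers summed to 0.848% and 1.5% of counts, against 0.00733% to 0.0369% in the other 3, and RW replicate 5 had 0.972%. A list of 12 other keratins summed to 0.749% in aN1aN2 replicate 2 and to at most 0.122% in the other libraries of both groups. The median of all genes relative to Pax8 was 0.64 here, and the part of airway epithelium in the keratin ratios was not tested.

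The keratin pair was examined further as the ratio of Krt8 to Krt18 counts, a measure chosen after the values were seen. It was 0.445 to 0.660 in RW at 5 days (mean 0.511 ± 0.0858) and 0.245 to 0.410 in aJ1aJ2 (0.342 ± 0.0666, SD, n = 5), without overlap. The log2 difference was -0.59 (2-sided exact permutation p = 0.00794, adjusted p = 0.0238 over 6 comparisons). In the second 7-day set it was 0.0847 to 0.178 in aN1aN2aN3 and 0.220 to 0.258 in aJ1aJ2 (log2 difference -1.08, exact permutation p = 0.00794, adjusted p = 0.0238). In the other 4 comparisons the log2 differences were -0.27 to 0.11 (adjusted p from 0.38 to 0.81, exact permutation). The adjustment covers the 6 comparisons only and does not cover the choice of this pair after the values were seen. Because many Krt8 words also match Krt8-ps, reads assigned to either cannot be separated here.

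The second 7-day set compared receptor blockade with ligand blockade. Cldn3 rose in aN1aN2aN3 and was the only member past the threshold on TMM-scaled counts, 1 of 9, where 19.6% of all genes passed and 9.19% were higher. It was 123, 164, 167, 70.9 and 183 CPM in aJ1aJ2 and 252, 431, 338, 345 and 366 CPM in aN1aN2aN3. The groups did not overlap, as for 8.92% of all genes, which were higher without overlap. The difference was 1.24 (log2, SE 0.249, adjusted p = 0.0067 by edgeR), a fold of 2.36 with a 95% interval of 1.62 to 3.43. Pax8 rose as well, from 217 ± 35.3 to 386.5 ± 93.5 CPM (0.78, SE 0.206, adjusted p = 0.0222 by edgeR). Relative to Pax8, Cldn3 was 0.394 to 0.848 in aJ1aJ2 and 0.637 to 1.46 in aN1aN2aN3, with overlap (0.55, edgeR adjusted p = 0.135).

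At an unadjusted p under 0.05 there were 4 members (Cldn3, Cdh1, Krt19 and Tjp1), where 35.6% of all genes had such a p. Among the other 8 members, 5 were above 0 and 3 below on the log2 scale. The cadherins were at 0.55 (Cdh1, SE 0.229, adjusted p = 0.107) and 0.48 (Cdh16, SE 0.278, adjusted p = 0.242), Epcam at 0.51 (adjusted p = 0.214), Tjp1 at 0.41 (adjusted p = 0.113) and Krt18 at 0.64 (adjusted p = 0.169, all by edgeR). Krt7 was at -0.25, Krt8 at -0.39 and Krt19 at -1.08 (adjusted p = 0.0792 by edgeR). Krt19 was 192, 229, 123, 38.4 and 72.1 CPM in aJ1aJ2 and 74.2, 67.8, 65.0, 69.1 and 44.2 CPM in aN1aN2aN3. The aJ1aJ2 libraries spread widely and enclosed those of aN1aN2aN3.

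Relative to Pax8, Krt7 (-1.07, adjusted p = 0.00935), Krt8 (-1.17, adjusted p = 0.0096) and Krt19 (-1.89, adjusted p = 0.00254) were lower in aN1aN2aN3 by edgeR. That is 3 of 9 members where 43.7% of all genes were lower and the median of all genes was -0.80, so the count is no larger than the background (44.9% in either direction, and 54.3% at an unadjusted p under 0.05, where the same 3 members stood). The Krt19 ratio was 0.142 to 0.189 in aN1aN2aN3 and 0.213 to 1.19 in aJ1aJ2, without overlap, as in 23.5% of all genes. With the sum of Pax8, Nkx2-1, Foxe1 and Hhex as the reference, Krt7 (-0.68, adjusted p = 0.123) and Krt8 (-0.77, adjusted p = 0.112) lost the call, Krt19 kept it (adjusted p = 0.0194) and Cldn3 gained one (0.95, adjusted p = 0.0398).

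The other genes of the same structures, from lists chosen with earlier results of these data known, were read beside the members. In the second set 7 of 20 further tight junction genes were higher in aN1aN2aN3 and 0 lower (median 0.42 against -0.07 over all genes), among them Cldn23, a claudin (1.78, adjusted p = 0.00784), the polarity gene Pard6b (1.12, adjusted p = 0.0106) and the scaffold Tjp3 (1.05, adjusted p = 0.00282). Of 16 adherens junction and desmosome genes, 7 were higher and 0 lower (median 0.53), led by the desmosome-associated gene Perp (1.99, adjusted p = 0.00225), with the nectins Nectin2 (1.14) and Nectin4 (1.13). Of 18 tested genes of epithelial identity, 6 were higher and 0 lower, among them the protease inhibitor Spint1 (1.00) and the splicing factor Esrp1 (0.92). Of 8 tested keratins outside the set, Krt13 was higher and Krt6a lower, both with group means of at most 1.25 CPM. Of all genes tested, 9.19% were higher. Relative to Pax8, 0 tight junction genes were higher and 2 lower (median -0.27), 1 adherens junction and desmosome gene was higher and 3 lower (median -0.18), and 0 genes of epithelial identity were higher and 2 lower (median -0.19). The median over all genes on that scale was -0.80, with 43.7% lower.

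The composition of the second-set libraries moved in the same comparison, in which 9.19% of all genes were higher and 10.4% lower. Of 15 mesenchymal genes 8 were lower in aN1aN2aN3 and 0 higher, among them Col3a1 (-2.67) and Zeb2 (-1.77), and of 8 adipose genes 5 were lower, among them Fabp4 (-2.28). Of 7 C cell genes 3 were higher, with Calca, the calcitonin gene, at 1.06. Of 7 endothelial genes 3 were higher and 2 lower, and of 13 tested follicle cell genes 2 were higher (Tg and Pax8) and 1 lower (Slc5a5). One salivary gland gene, Aqp5, was lower, and no gene of the muscle, airway, parathyroid and thymus lists passed. Relative to Pax8, where 43.7% of all genes were lower, 13 of the 15 mesenchymal, 8 of the 8 adipose and 9 of 12 follicle cell genes were lower, and of the C cell genes 1 was higher and 2 lower. The summed share of the parathyroid list ran from 0.0119% to 7.71% of counts in aJ1aJ2 and from 1.07% to 4.39% in aN1aN2aN3, and that of the C cell list from 0.68% to 2.6% and from 3.08% to 4.81%. Epcam, claudins and keratins are also expressed by other epithelia, and the part of these cells in the Cldn3 difference was not tested. In the 5 comparisons with RW, 0 genes of any of the 14 lists passed on TMM-scaled counts or relative to Pax8 (edgeR).

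The second set also differed from the first in the level of the members under the same aJ1aJ2 treatment, a contrast of sets that cannot be told apart from any other difference between them and was not tested. Tjp1 had a mean of 136 CPM in the first set and 33.0 CPM in the second, 4.12-fold lower. Cdh16 was 301 and 84.6 CPM, 3.56-fold lower, and Cdh1 287 and 99.0 CPM, 2.9-fold lower. None of the 5 second-set libraries of Tjp1 (26.0 to 43.7 CPM) reached those of the first (101 to 155 CPM). Krt18 (95.2 and 167 CPM), Krt19 (67.2 and 131 CPM) and Epcam (253 and 366 CPM) were higher on average, and Krt8 (40.9 and 39.2 CPM), Cldn3 (149 and 142 CPM) and Krt7 (189 and 225 CPM) were close.

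Gene length moved with this contrast. Over genes with at least 5 CPM in either set, the median log2 difference between second and first set was 1.3 for 1140 genes with under 1.5 kb of merged exons, 0.51 for 2647 genes of 1.5 to 3 kb, -0.06 for 3473 genes of 3 to 5 kb and -0.61 for 5476 genes over 5 kb. The members with the 3 lowest values, Tjp1 (7.81 kb), Cdh16 (3.79 kb) and Cdh1 (4.57 kb), have longer merged exons than the 3 with the highest values (1.44 to 2.19 kb). Cdh16 and Cdh1 lie in the class of 3 to 5 kb with its median of -0.06, Krt7, with 7.05 kb, was at 0.25, and Cldn3, with 1.26 kb, at -0.07. Within the second set the length classes differed less between aN1aN2aN3 and aJ1aJ2, with medians of -0.39, -0.10, 0.03 and 0.10 from short to long. Cldn3 is in the shortest class and was higher in aN1aN2aN3. RNA quality values were not used here, and the part of length in the set difference was not tested.

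**Figure D5:**
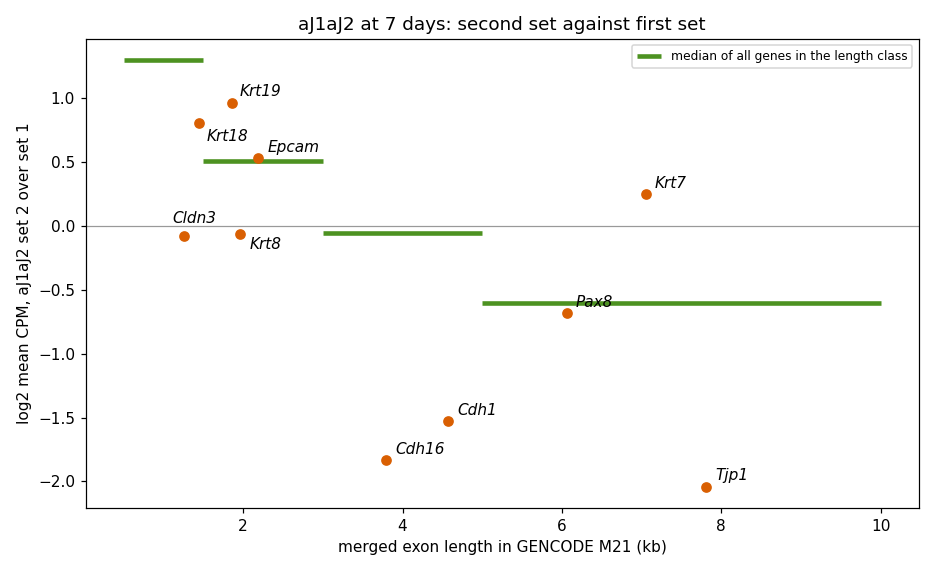
Log2 ratio of mean CPM in aJ1aJ2 at 7 days, second set over first set, against merged exon length (kb), with a point for each member and for Pax8 and green lines for the median of all genes in 4 length classes, the last drawn only to 10 kb. The class medians fall from 1.3 to -0.61, and Tjp1, Cdh16 and Cdh1 lie lowest, at -2.04, -1.83 and -1.53.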

How the data were processed

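RNA-seq counts of 50 mouse thyroid libraries were analysed. The authors deposited whole-number read counts per gene, without normalization, and FPKM values, which were used only to find the length they were scaled by. Per the submitters' processing notes GSNAP and limma were used. For the role of each, the counting program, the genome build and the use of strand: not given in the sources used here. Per the labels' protocols, total RNA was sequenced as single-end 50-base reads.

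Symbols were matched by Ensembl ID for 52403 of 52636 genes. Groups and replicate numbers came from the sample titles. The labels do not say whether replicates came from separate animals, so p-values measure only the spread between these samples, which may be technical. Over 100 pairs of replicates, chi-square divided by its degrees of freedom was at least 15.6, so every library was counted as its own sample. All 50 count columns had a library (0 columns without).

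Differences were tested with edgeR 4.0.16 in R 4.3.3 (TMM, filterByExpr with a minimum count of 10 and total of 15, robust glmQLFit, glmQLFTest), each time and set fitted separately, with p-values adjusted over all genes tested. The same test was run with Pax8 counts as the library size. All 9 members passed the filter in every fit. CPM levels used TMM over all 50 libraries. DESeq2 1.42.0, other scalings, filters, the replicate number as a block, a muscle covariate and leaving out each library were alternatives. Scripts were tested on simulated data.

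The members, the 14 gene lists and the tests were chosen with earlier results of these data known. Named were all members and Pax8, up to 3 called genes of each list with the largest change (examples of these are given), and the 3 genes most like each member in within-group log2 CPM among genes with a mean of at least 10 CPM. Exon lengths, overlaps and shared 50-base words came from GENCODE M21, and promoters from RefSeq (GRCm38.p6). Intervals are 95%.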

Additional observations from a re-analysis of the deposited data

Results flagged for a closer look

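In 10 of 90 checks of a member in a group of 5 libraries, a single library stood apart from the other 4 by Dixon's ratio, where chance flags about 1 in 20. In RW replicate 3 at 5 days, the library with 12.1% muscle counts, Epcam was 6.77 CPM (others 243 to 334), Cdh16 13.8 CPM (648 to 767) and Tjp1 66.0 CPM (137 to 159). In aJ1aJ2 replicate 3 at 5 days Epcam was 69.2 CPM (229 to 289). In aJ1aJ2 replicate 2 of the first 7-day set Epcam was 120.1 CPM (273 to 308), Cdh1 129.98 CPM (299 to 367), Cdh16 112 CPM (315 to 390), Krt8 18.4 CPM (42.3 to 50.7) and Krt18 38.2 CPM (99.96 to 119). In RW replicate 5 of the first 7-day set Tjp1 was 76.2 CPM (114 to 129).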

How the results depend on the processing

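In the second 7-day set the number of members past the threshold was 1 in the test as reported, 2 with DESeq2 (Krt19 added), 3 with a muscle covariate (Epcam and Krt18 added) and 1 to 3 when a library was left out. Of all genes, 3614 of 18450 tested (19.6%) passed as reported. The counts were 4941 with DESeq2, 4927 with the muscle covariate and 2042 to 4305 with a library left out. Without aJ1aJ2 replicate 4 Krt19 was added (-1.29, adjusted p = 0.0115 by edgeR), and without replicate 5 Cdh1 (0.75) and Tjp1 (0.54) were. Cldn3 kept its call in all (1.09 to 1.35 with a library left out, adjusted p 0.00412 to 0.0206 by edgeR). The 4 calls on members kept their side in 40 of 40 fits with a library left out and in 15 of 17 others, the exceptions being Krt7 and Krt8 under the 4-factor reference. In the 5 comparisons with RW, 0 members passed in any alternative run, on TMM-scaled counts or relative to Pax8. Values not past the threshold changed sign in 44 of 611 and 101 of 1940 alternatives. The exact tests of the Cdh16, Krt7, Krt8 and Krt19 ratios for aJ1aJ2 at 5 days stayed at p = 0.0159 or below with any library left out. These are the members whose groups did not overlap, and such groups stay apart when a library is left out. Their p therefore stays near 0.00794, the smallest that 9 libraries allow in the exact permutation test, and is no check of the result.

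Counts of all genes called were less stable. For aJ1aJ2 and aN1aN2 at 15 hours, aJ1aJ2 and aN1aN2 at 5 days, aJ1aJ2 at 7 days and the second set they were 106, 311, 33, 0, 0 and 3614 as reported, and 318, 935, 477, 486, 476 and 4941 with DESeq2. The muscle covariate gave 144, 697, 1064, 777, 6 and 4927. The fit on the contrast's own groups gave 48 and 0 for aJ1aJ2 at 15 hours and 5 days, and no filter gave 9 for aJ1aJ2 at 5 days and 20 at 7 days. Without RW replicate 3 at 5 days the aJ1aJ2 count was 197, and without aJ1aJ2 replicate 2 it was 0. Relative to Pax8 the counts were 31, 48, 0, 0, 0 and 8284 as reported, and 159, 281, 42, 183, 181 and 9551 with DESeq2. The 4-factor reference gave 3077 in the second set. Leaving out aJ1aJ2 replicate 3 at 5 days gave 11203 genes for aJ1aJ2 at 5 days, where 18433 genes were tested with all libraries. Of the 9 members, 0 were among them. The cause was not tested.

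With the replicate number as a block, 0 members passed in the comparisons with RW, 1 in the second set and 3 relative to Pax8, and the counts of all genes were 36, 186, 1, 0, 0 and 2100. Relative to Pax8 the block gave 5364 genes in the second set. For aN1aN2 at 5 days the block put 6 of the 8 members below 0 above it, and Cdh16 (-0.09) and Krt19 (-0.15) stayed below. Deviations of libraries with the same number were also correlated. In no comparison did all 5 pairs correlate above 0.1. The most were 4 of 5, for aN1aN2 at 15 hours (r up to 0.81) and aJ1aJ2 at 5 days (r up to 0.735). At most 2 of 5 pairs correlated best with their own number. These values do not settle whether the numbers mark pairs.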
